A study of Mus musculus with 16 samples.

Results

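The 9 genes described here are insulin-like growth factor 1 (Igf1), its receptors Igf1r and Igf2r, and the IGF-binding proteins Igfbp2, Igfbp3, Igfbp4, Igfbp5, Igfbp6 and Igfbp7. They were taken by name from the 19822 genes analyzed, and their levels were read in 4798 single cells of mouse mammary tumors, by tumor model, cell class and fibroblast subset. IGF1 is a secreted growth factor that signals through the receptor tyrosine kinase IGF1R, which acts through IRS adaptor proteins, PI3 kinase and AKT to promote growth and survival. IGF2R, also called the cation-independent mannose-6-phosphate receptor, takes up IGF2 for degradation in lysosomes. Secreted IGF-binding proteins hold IGFs in the extracellular space, lengthen their half-life and limit or deliver them to the receptor, and proteases that cleave the binding proteins release the ligand. In the mammary gland IGF1 is a stromal factor that acts on the epithelium during ductal growth.

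The libraries were made by Drop-seq, in which each cell shares a droplet with a bead that carries a barcode, and transcripts are counted at their 3′ ends by unique molecular identifiers (UMIs). Both models were FVB/n females with untreated end-stage tumors of triple-negative breast cancer (TNBC). WB1P mice were WapCre;Brca1F/F;Trp53F/F, so that Cre, driven by the promoter of the milk protein gene Wap, removes both tumor suppressors from secretory epithelial cells. WB1P-Myc mice had the same alleles and in addition Col1a1invCAG-Myc-IRES-Luc, a Cre-switched Myc and luciferase construct in the Col1a1 locus. Live dapi-negative singlets were sorted, and the titles number 4 samples per model, which the extraction notes in the labels describe as 4 droplet fractions of 1 sample, chosen by droplet quality. The fractions are technical repeats of 1 sample, so no test between models was possible, and the model cannot be told apart from other differences between the 2 samples.

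The 8 HiSeq tables held between 256985 and 4960334 UMIs. After filtering, 1307 WB1P cells (median 1724 UMIs) and 3491 WB1P-Myc cells (median 2359 UMIs) remained, and 1 barcode was shared between tables. WB1P fraction 1 stood apart with 65 cells, of which 2 were fibroblast-like and 1 endothelial-like, against 394 to 950 cells in each other fraction. Clustering gave 2053 epithelial-like, 1078 macrophage-like, 1065 Schwann-like, 492 fibroblast-like and 110 endothelial-like cells, and all Schwann-like cells came from the WB1P-Myc sample. On reclustering, the macrophage-like class also held 201 monocyte-like and 38 T or NK-like cells. The 12 fibroblast markers summed to 49771 UMIs per 1000000 (CPM, pooled over the cells of a class) in fibroblast-like cells and to 815 CPM in epithelial-like cells. The epithelial-like class joined a WB1P cluster (655 of 664 cells) with a WB1P-Myc cluster (1370 of 1389 cells). The WB1P-Myc cluster was named from 5 epithelial markers, none of them among its 10 top genes, which were led by Bex1, Bex4 and H19. The 14 epithelial markers summed to 6055 CPM in its WB1P cells, 2229 CPM in its WB1P-Myc cells and 182 CPM in Schwann-like cells.

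The promoters of 5 members that separated the fibroblast subsets are shown here because each holds a match to one of the motifs searched, which is a description and not a mapped site. All are RefSeq windows of 300 bases on build GRCm38.p6, from 250 bases before to 50 bases after an annotated start, 5′ to 3′ on the gene's strand, and capitals mark the match. Igf1 lies at chr10:87860861-87861160 on the plus strand, inside the annotated gene, with 1 match to the AP-1 motif TGANTCA. Igfbp4, at chr11:99040994-99041293 on the plus strand, holds 1 match to TATAAA, and Igfbp6, at chr15:102143936-102144235 on the plus strand, holds 1 on the other strand. Igfbp2, at chr1:72824230-72824529 on the plus strand, holds 3 matches to GGGCGG, and Igfbp7, at chr5:77407996-77408295 on the minus strand, holds 4.
Igf1: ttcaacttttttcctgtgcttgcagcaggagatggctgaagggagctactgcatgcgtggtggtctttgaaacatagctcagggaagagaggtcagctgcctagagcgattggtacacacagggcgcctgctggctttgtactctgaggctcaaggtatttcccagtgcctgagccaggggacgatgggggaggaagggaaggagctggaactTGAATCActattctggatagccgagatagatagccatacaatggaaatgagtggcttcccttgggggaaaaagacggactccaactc
Igfbp4: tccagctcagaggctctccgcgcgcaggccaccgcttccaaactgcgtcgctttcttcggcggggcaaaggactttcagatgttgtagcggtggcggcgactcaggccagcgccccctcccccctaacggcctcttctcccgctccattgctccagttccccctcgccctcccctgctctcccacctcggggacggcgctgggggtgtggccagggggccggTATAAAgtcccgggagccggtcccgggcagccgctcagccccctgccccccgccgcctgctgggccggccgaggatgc
Igfbp6: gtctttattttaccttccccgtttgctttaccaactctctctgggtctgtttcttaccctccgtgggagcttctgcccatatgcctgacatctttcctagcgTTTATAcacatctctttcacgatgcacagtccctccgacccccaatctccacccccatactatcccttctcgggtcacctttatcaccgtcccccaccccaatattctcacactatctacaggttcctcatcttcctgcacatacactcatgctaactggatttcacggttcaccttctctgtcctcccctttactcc
Igfbp2: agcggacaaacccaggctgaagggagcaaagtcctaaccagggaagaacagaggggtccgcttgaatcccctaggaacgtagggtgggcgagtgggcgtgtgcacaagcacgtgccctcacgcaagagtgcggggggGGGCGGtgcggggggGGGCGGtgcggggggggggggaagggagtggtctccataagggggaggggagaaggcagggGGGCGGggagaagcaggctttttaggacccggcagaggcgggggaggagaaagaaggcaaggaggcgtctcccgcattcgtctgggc
Igfbp7: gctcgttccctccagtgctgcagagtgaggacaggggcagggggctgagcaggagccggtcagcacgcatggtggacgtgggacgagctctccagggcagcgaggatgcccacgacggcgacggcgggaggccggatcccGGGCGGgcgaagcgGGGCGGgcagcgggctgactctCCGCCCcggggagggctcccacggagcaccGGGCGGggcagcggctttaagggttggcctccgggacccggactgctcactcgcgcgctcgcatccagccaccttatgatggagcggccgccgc
On both strands of 32851 mouse promoters of this length, TATAAA was found in 13.6%, TGANTCA in 7.81% and GGGCGG in 35.7%. The windows of Igfbp3 and Igfbp5 held none of these 3 motifs. The C/EBP-type motif TTNNGNAA, present in 40.7% of promoters, was found in none of the 5 windows shown. The Igfbp5 window, not shown, held 1 match to it. The window of a second annotated start of Igfbp2, not shown, differed from the first in holding no GGGCGG match, 1 AP-1 match and 1 C/EBP-type match.

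Igf1 transcripts were concentrated in the fibroblasts of both models. Fibroblast-like cells made up 10.3% of cells and 10.1% of all UMIs, yet carried 1171 of 1284 Igf1 UMIs (91.2%), with 340 of 361 in WB1P and 831 of 923 in WB1P-Myc. Igfbp6, which binds IGF2 with preference, had the next highest fibroblast share with 332 of 392 UMIs (84.7%), followed by Igfbp4, an inhibitory binding protein, with 67.8%. The other members were spread over more classes: Igfbp3 UMIs lay mainly in endothelial-like cells (54.0%), and Igfbp5 (67.4%), Igf2r (55.6%) and Igf1r (52.8%) UMIs mainly in the numerous epithelial-like cells. Epithelial-like cells carried 45.6% of all UMIs. In WB1P-Myc alone their share was 48.2% for Igfbp5, 50.9% for Igf2r and 42.9% for Igf1r, against 41.3% of all UMIs.

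**Figure D1:**
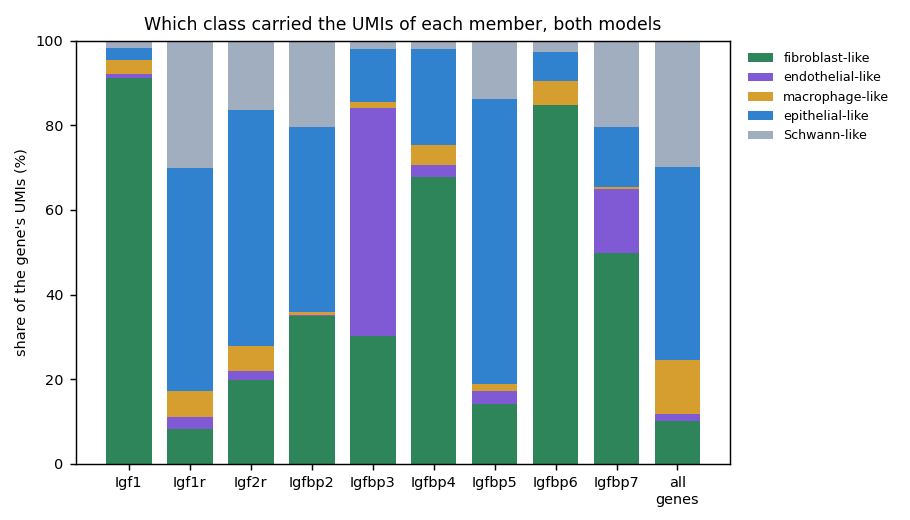
Stacked bars show the share (%) of each gene's UMIs found in each cell class, both models together, beside a bar for the UMIs of all genes. Fibroblast-like cells carry 91.2% of Igf1 and 84.7% of Igfbp6 UMIs against 10.1% of all UMIs.

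A difference between classes or subsets was called where a gene had at least 50 UMIs on both sides together, a pooled ratio of at least 2-fold, a 95% counting interval that did not include equality, and the same direction in both models. Of the 9 members, 7 were higher in fibroblast-like cells than in all other cells by this rule, against 12.5% of the 12233 genes with enough UMIs. The median log2 ratio of the members was 2.26, and that of all genes was -0.37. The log2 ratio was 6.52 (95% counting interval 6.24 to 6.82) for Igf1, 5.62 (5.22 to 6.04) for Igfbp6 and 4.23 (4.11 to 4.34) for Igfbp4, which are folds of 92.0, 49.1 and 18.7. It was 3.14 for Igfbp7, 2.26 for Igfbp2, 1.94 for Igfbp3 and 1.14 (0.87 to 1.40) for Igf2r. Igfbp5 (0.54) and Igf1r (-0.35) were not called, and Igfbp5 went in opposite directions in WB1P (-0.49) and WB1P-Myc (1.03). In the MiSeq run both changed sign, to -1.68 for Igfbp5 and 0.54 for Igf1r. The call of Igf2r was lost in the MiSeq run (0.14) and after thinning cells to equal depth (0.75), and that of Igfbp3 after thinning (0.97). The MiSeq run also lost the call of Igfbp6 (4.25, 25 UMIs) and moved Igfbp3 to 5.32 (94 and 21 UMIs), where it was called. That run gave no endothelial-like class with cells of both models, so its classes were not those of the HiSeq run. Classes were defined on the same cells, with the members and the pathway genes left out of the clustering, so these contrasts are descriptions without a test. All intervals cover counting error only, and a gene's level was compared between cells and not with the level of another gene.

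Igf1, the ligand, was found in fibroblast-like cells at 757 CPM (714 to 801), far above endothelial-like (46.4 CPM, 23.2 to 83.1) and macrophage-like cells (21.5 CPM, 15.5 to 29.1), whose intervals overlapped. Epithelial-like (5.59 CPM) and Schwann-like cells (4.59 CPM) were lowest and did not differ beyond their intervals. An Igf1 UMI was seen in 49.2% of fibroblast-like cells and 1.66% of epithelial-like cells, whose median depths were 2467.5 and 2125 UMIs, and after thinning each cell to 600 UMIs the shares were 27.2% and 0.390%. In epithelial-like cells the Igf1 level was 8.29 CPM where a collagen UMI (Col1a1, Col1a2 or Col3a1) was present and 2.68 CPM where none was.

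The receptors were measured at low counts. Igf1r, the signaling receptor, ran from 38.0 CPM in endothelial-like cells (17.4 to 72.1) through epithelial-like (24.2), Schwann-like (21.0) and fibroblast-like cells (16.8) to macrophage-like cells (10.2, 6.26 to 15.8), and every pair of neighbors in this order had overlapping intervals. The epithelial-like interval (20.7 to 28.2) lay above the macrophage-like one. In WB1P alone Igf1r was highest in epithelial-like cells (31.4 CPM, 24.2 to 40.1), above fibroblast-like cells (8.59 CPM, 5 UMIs), without overlap of the intervals, while in WB1P-Myc these classes were at 21.3 and 21.7 CPM. Igf2r was highest in fibroblast-like cells at 98.9 CPM (83.8 to 116), overlapping endothelial-like cells (67.5 CPM) but not epithelial-like cells (61.4 CPM, 55.7 to 67.5). In WB1P alone the fibroblast-like and epithelial-like intervals of Igf2r overlapped (96.2 and 67.7 CPM). Schwann-like (27.8 CPM) and macrophage-like cells (23.6 CPM) were lower, with intervals that overlapped each other.

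Among the binding proteins, Igfbp2, Igfbp4 and Igfbp6 were highest in fibroblast-like cells, Igfbp3 and Igfbp7 were highest in endothelial-like cells, and Igfbp5 differed by model. Igfbp4 was highest in fibroblast-like cells (1265 CPM), then endothelial-like (338), epithelial-like (94.1), macrophage-like (70.7) and Schwann-like cells (11.8), with no overlap between neighbors over both models. In WB1P-Myc alone its epithelial-like and macrophage-like intervals overlapped (75.6 and 63.6 CPM). Igfbp6 was at 215 CPM (192 to 239) in fibroblast-like cells and at most 11.8 CPM elsewhere, with 0 of 236976 UMIs in endothelial-like cells, which allows up to 12.7 CPM. Igfbp2, a binding protein produced by many tumors, was also highest in fibroblast-like cells (312 CPM), above epithelial-like (86.6) and Schwann-like cells (61.4). In macrophage-like (5.63 CPM) and endothelial-like cells (4.22 CPM, 1 UMI) Igfbp2 was near the limit of detection.

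Igfbp3, the main carrier of circulating IGFs, reached 2874 CPM (2662 to 3098) in endothelial-like cells and 246 CPM (222 to 272) in fibroblast-like cells. Igfbp7, a low-affinity IGF binder deposited in vascular basement membrane, reached 6178 CPM (5865 to 6503) in endothelial-like cells and 3101 CPM in fibroblast-like cells. Among the cell classes both genes were thus highest in endothelial-like cells, with the fibroblast-like class next and no overlap of the intervals. The fibroblast-like class included pericyte-like cells, which held Igfbp7 at 7804 CPM in WB1P and 6157 CPM in WB1P-Myc. The class order therefore does not rank endothelial-like above pericyte-like cells for Igfbp7. Schwann-like (431 CPM), epithelial-like (193) and macrophage-like cells (26.1) followed for Igfbp7, while Igfbp3 was at 22.9 CPM or less in these classes. An Igfbp7 UMI was seen in 95.5% of endothelial-like and 90.4% of fibroblast-like cells. The Schwann-like cells came from WB1P-Myc, and in WB1P epithelial-like cells Igfbp7 was at 424 CPM, below the 532 CPM of near-empty WB1P barcodes with under 200 genes.

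Igfbp5, which binds extracellular matrix, had a different class order in each model. In WB1P it was at 319 CPM (295 to 345) in epithelial-like, 173 CPM (141 to 211) in fibroblast-like and 97.4 CPM (35.7 to 212, 6 UMIs) in endothelial-like cells, and the last 2 intervals overlapped. In WB1P-Myc it was at 228 CPM (163 to 311) in endothelial-like, 108 CPM (88.0 to 131) in fibroblast-like and 66.9 CPM (59.8 to 74.5) in epithelial-like cells, without overlap. Epithelial-like cells were thus the highest of these classes in WB1P and the lowest in WB1P-Myc. Over both models the levels were 141, 132 and 194 CPM in epithelial-like, fibroblast-like and endothelial-like cells, and 44.2 and 11.3 CPM in Schwann-like and macrophage-like cells.

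**Figure D2:**
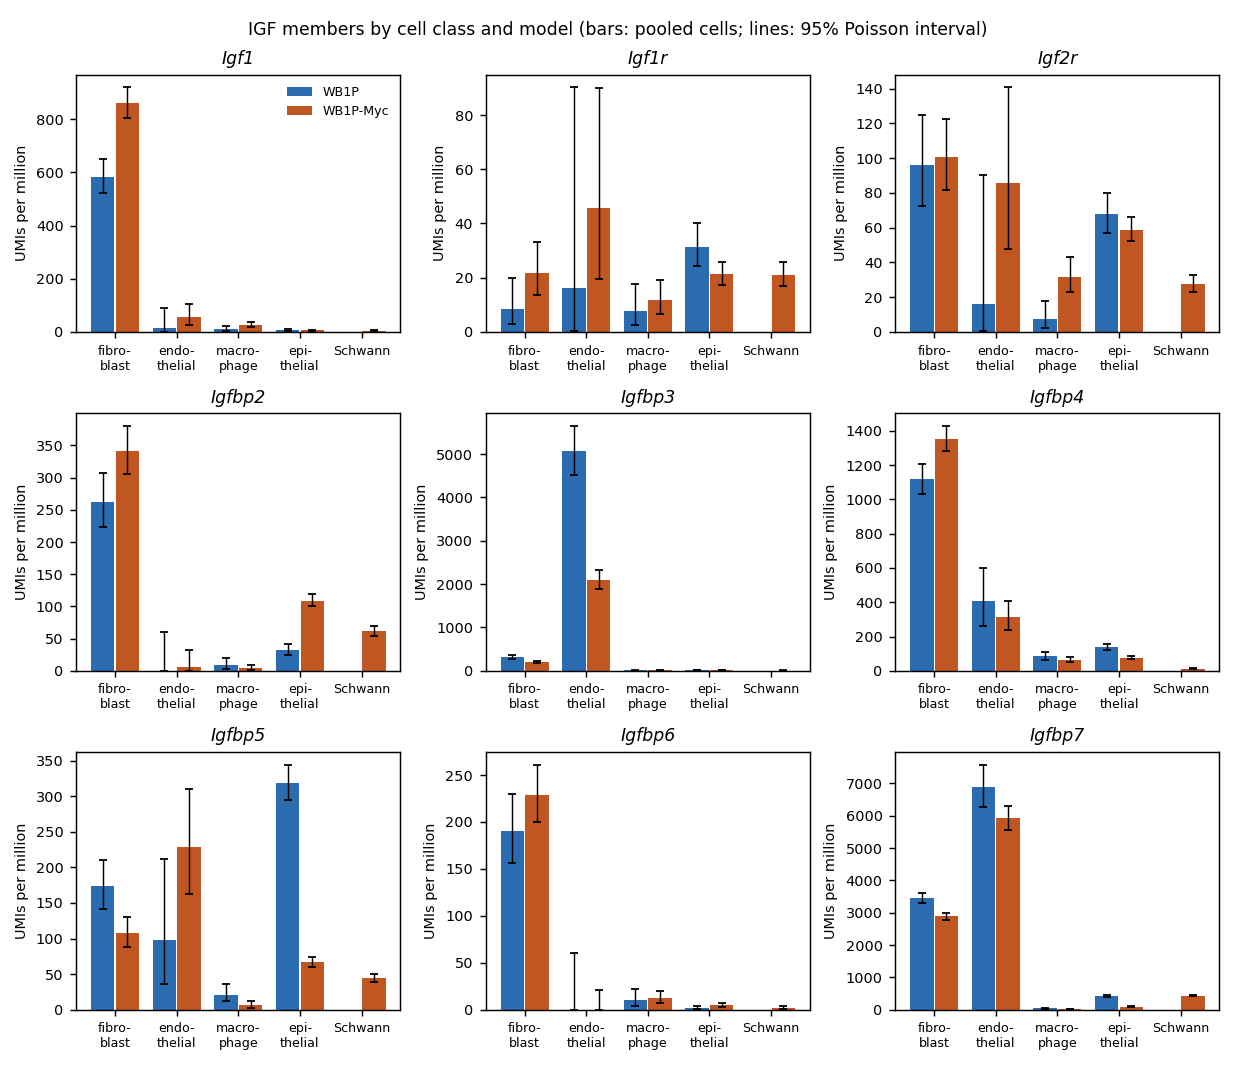
Bars show the level (CPM) of each gene pooled over the cells of each class (WB1P blue, WB1P-Myc orange), and lines show the 95% Poisson interval. Igf1 and Igfbp6 stand out in fibroblast-like cells and Igfbp3 in endothelial-like cells in both models, and Schwann-like cells were found only in WB1P-Myc.

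The endothelial-like class also held pericyte transcripts, with 10 of 10 pericyte markers present at a summed 1637 CPM, and its values are also given by detection of Rgs5, a defining pericyte gene. Igfbp7 was at 6499 CPM in the 89 endothelial-like cells without an Rgs5 UMI and at 5091 CPM in the 21 cells with one. Igfbp3 was at 3339 and 1296 CPM in the same cells. At a median depth of 1621 UMIs a cell without an Rgs5 UMI may still express the gene, and the part of pericyte RNA in these levels was not tested.

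Fibroblast-like cells were clustered again to separate inflammatory and myofibroblastic cancer-associated fibroblasts (iCAFs and myCAFs). This gave 143 iCAF-like cells (46 WB1P, 97 WB1P-Myc), 135 myCAF-like cells (78 and 57), 110 pericyte-like cells (45 and 65) and unnamed clusters of 65 and 39 cells. The myCAF-like name rests on 5 markers (Tagln, Tnc, Lrrc15, Col12a1 and Col8a1), none of them among the 10 top genes of the cluster, which were led by Spp1 and Mgll. The 12 iCAF markers summed to 10582 CPM in iCAF-like and 1599 CPM in myCAF-like cells, and the 12 myCAF markers to 4878 and 15994 CPM.

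The subsets carried opposite sets of IGF genes. Igf1, Igfbp4, Igfbp5 and Igfbp6 were higher in iCAF-like cells (4 of 8 members with enough UMIs, against 8.94% of 2942 genes), and Igfbp2, Igfbp3 and Igfbp7 were higher in myCAF-like cells (3 of 8, against 10.5%). The median log2 ratio of iCAF-like over myCAF-like cells was 1.53 for the 8 members and -0.13 for all genes. As the members went both ways, their median describes no common shift. Each of the 7 kept its direction in 3 of 3 WB1P fractions and 4 of 4 WB1P-Myc fractions, WB1P fraction 1 being left out for its 2 fibroblast-like cells.

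The Igf1 level was 1645 CPM in iCAF-like and 297 CPM in myCAF-like cells, which is 5.54-fold (log2 ratio 2.47, 2.22 to 2.73). By fraction, Igf1 in iCAF-like cells was 729, 704 and 1819 CPM in WB1P fractions 2 to 4 and 1564, 1655, 2077 and 1828 CPM in WB1P-Myc fractions 1 to 4. In myCAF-like cells it was 210.1, 235 and 102 CPM, and 408, 657, 355 and 189.9 CPM. The lowest iCAF-like fraction lay above the highest myCAF-like fraction, so the subsets did not overlap. The share of cells with an Igf1 UMI was 68.5% in the iCAF-like and 41.5% in the myCAF-like subset (median depths 2462 and 3269 UMIs), and thinning left 48.3% and 15.6%.

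Igfbp4 was at 2608 CPM in iCAF-like and 595 CPM in myCAF-like cells (log2 ratio 2.13, 1.95 to 2.32). Its iCAF-like fractions were 1046, 1376 and 2525 CPM in WB1P and 3339, 3311, 2969 and 1779.8 CPM in WB1P-Myc. Its myCAF-like fractions were 640.3, 555 and 595 CPM, and 666, 485, 811 and 363 CPM. The Igfbp4 ranges did not overlap. Igfbp6 was at 522 and 95.6 CPM (log2 ratio 2.45, 1.99 to 2.93), with iCAF-like fractions of 507, 768 and 814 CPM in WB1P and 544, 301, 423 and 561 CPM in WB1P-Myc. Its myCAF-like fractions were 70.0, 37.6 and 68 CPM, and 85.9, 125, 139 and 189.9 CPM, again without overlap. Igfbp5 was at 287 and 62.5 CPM (log2 ratio 2.20, 1.63 to 2.81), but its fractions overlapped: WB1P-Myc fraction 2 had 18.8 CPM in iCAF-like cells, and WB1P-Myc fraction 1 had 150.4 CPM in myCAF-like cells.

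Igfbp7 was at 1403 CPM in iCAF-like and 4772 CPM in myCAF-like cells (log2 ratio -1.77, -1.90 to -1.64). Its iCAF-like fractions ran from 1094 to 1764 CPM and its myCAF-like fractions from 3435 to 8565 CPM, with no overlap. Igfbp2 was at 50.7 and 755 CPM (log2 ratio -3.90, -4.61 to -3.26), which is 14.9-fold higher in myCAF-like cells. Its iCAF-like fractions were 0, 0 and 54.3 CPM in WB1P and 0, 0, 138 and 64.1 CPM in WB1P-Myc, and its myCAF-like fractions were 430.2, 226 and 748 CPM, and 881, 1032, 190.1 and 2659 CPM. The Igfbp2 ranges did not overlap, although the myCAF-like level varied widely between fractions. Igfbp3 was at 33.8 and 595 CPM (log2 ratio -4.14, -5.03 to -3.37). Its myCAF-like fractions ranged from 34.5 CPM in WB1P-Myc fraction 4 to 1622 CPM in fraction 3, and its iCAF-like fractions from 0 to 77.7 CPM, so a single myCAF-like fraction overlapped the iCAF-like range.

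Of the receptors, Igf2r was at 126 CPM in iCAF-like and 66.4 CPM in myCAF-like cells (log2 ratio 0.92, 0.27 to 1.59), below the 2-fold limit, which it passed under trimmed-mean (TMM) scaling at 1.06, with each cell weighted equally at 1.05, and without WB1P-Myc fraction 1 (1.20) or 4 (1.04). Igf1r had 4 and 12 UMIs in the subsets and was not compared. By model, the log2 ratio of Igf1 was 2.52 in WB1P and 2.16 in WB1P-Myc, that of Igfbp4 1.51 and 2.29, and that of Igfbp6 3.63 and 1.76. For Igfbp2 the ratio was -4.38 and -4.21, and for Igfbp3 -3.46 and -4.49. The MiSeq run had calls for Igf1, Igfbp4 and Igfbp7 alone. Its ratios of Igfbp6 (2.57), Igfbp5 (1.31), Igfbp2 (-1.27) and Igfbp3 (-1.50) kept their direction and rested on 17, 6, 42 and 40 UMIs, under the limit of 50. Thinning lost the calls of Igfbp3 (-5.33, 39 UMIs) and Igfbp5 (2.20, 41 UMIs), which also fell under that limit, and keeping cells under 10% mitochondrial UMIs lost that of Igfbp7 (-0.98).

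**Figure D3:**
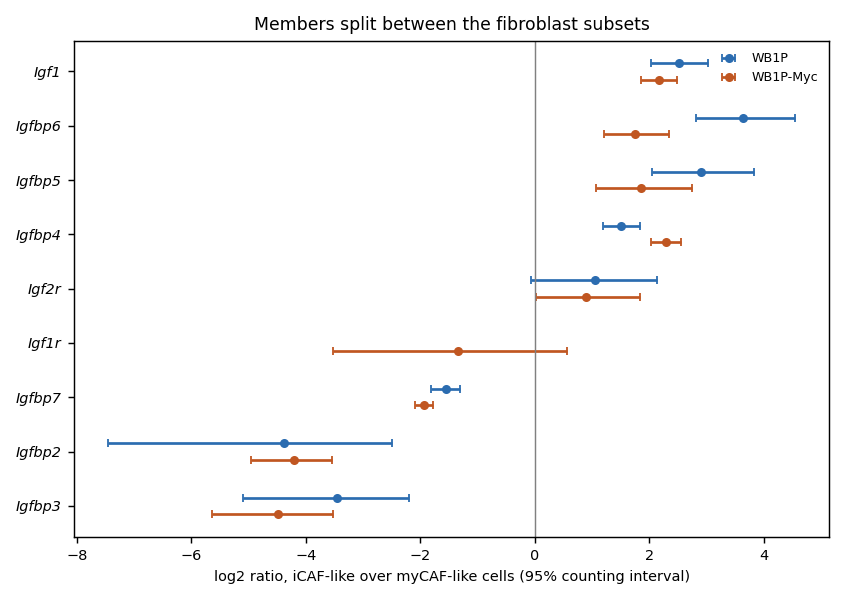
Points show the log2 ratio of iCAF-like over myCAF-like cells for each gene in WB1P (blue) and WB1P-Myc (orange), with 95% counting intervals. Igf1 (2.52 and 2.16) and Igfbp4, Igfbp5 and Igfbp6 lie above 0 in both models, and Igfbp2 (-4.38 and -4.21), Igfbp3 and Igfbp7 below 0.

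Pooled over their cells, pericyte-like cells had the least Igf1 and the most Igfbp7 of the named fibroblast subsets. Against iCAF-like and myCAF-like cells together, 1 of 8 members was called higher in pericyte-like cells (4.44% of 3424 genes) and 6 were called lower (10.3%). Igfbp7 was at 6816 and 3266 CPM (log2 ratio 1.06, 0.96 to 1.16), a call that ended without WB1P fraction 3 (0.96), without WB1P-Myc fraction 3 (0.97) and with each cell weighted equally (0.99). Igf1 was at 121 and 899 CPM (log2 ratio -2.90), Igfbp4 at 178 and 1495 CPM (-3.07) and Igfbp6 at 34.5 and 286 CPM (-3.05). Igfbp5 (-2.51), Igfbp3 (-2.45) and Igfbp2 (-2.35) were lower too, but thinning lost the calls of Igfbp3 (-2.36) and Igfbp5 (-4.02), each left with 42 UMIs, and Igfbp2 turned to 0.14 when cells with under 10% mitochondrial UMIs were kept. Pooled Igfbp2 in pericyte-like cells (71.7 CPM in WB1P, 95.8 in WB1P-Myc, from 5 and 10 UMIs) was not below iCAF-like cells (20.1 and 60.4 CPM, 2 and 19 UMIs). Nor was Igfbp3 (71.7 and 57.5 CPM, 5 and 6 UMIs, against 50.2 and 28.6 CPM, 5 and 9 UMIs). These counts are too few to rank pericyte-like against iCAF-like cells. The pooled levels of both genes were lower only against myCAF-like cells. Pericyte-like cells were shallower, with a median of 1263 UMIs. Pericyte markers summed to 5185 CPM in pericyte-like, 371 CPM in myCAF-like (9 of 10 with a UMI, Des at 0) and 77.3 CPM in iCAF-like cells (6 of 10). In the 131 myCAF-like cells without an Rgs5 UMI, Igfbp7 remained at 4702 CPM. The 56 pericyte-like cells without an Rgs5 UMI held Igfbp7 at 3998 CPM, below that level. They held Igf1 at 265 CPM (162 to 409), overlapping the same myCAF-like cells (303 CPM, 257 to 356). The 54 pericyte-like cells with an Rgs5 UMI held Igfbp7 at 8976 CPM and Igf1 at 10.1 CPM, so the order of the subsets rested on them.

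The unnamed cluster of 65 cells, led by Ptn, H19, Cyp1b1 and Vcam1, held Igf1 at 1184 CPM, Igfbp4 at 2344 CPM and Igfbp7 at 1131 CPM. The myCAF list, with Cthrc1, and the iCAF list each had 1 leading marker in it. The unnamed cluster of 39 cells was led by cell cycle genes, had the epithelial keratin Krt8 as its one leading marker, and had a median depth of 7617 UMIs against 2467.5 in all fibroblast-like cells, and the part of mixed droplets was not tested. It held Igf1 at 414 CPM, Igfbp4 at 508 CPM and Igfbp7 at 1422 CPM. Over the 5 fibroblast clusters, with both models pooled, Igf1 ran from 121 CPM in pericyte-like to 1645 CPM in iCAF-like cells. By the mean of WB1P fractions, the cluster of 65 cells was above iCAF-like cells, with overlapping fractions. It held Igf1 at 1282 against 1084 CPM and Igfbp4 at 2425 against 1649 CPM. In WB1P-Myc its means were lower (1091 against 1781 CPM, and 2010 against 2850 CPM). WB1P pericyte-like cells held 3 Igf1 UMIs (43.0 CPM, 8.88 to 126), and WB1P barcodes with under 200 genes held Igf1 at 68.1 CPM (42.1 to 104), so the WB1P pericyte-like level was not above that of these near-empty barcodes. The same barcodes held Igfbp5 at 249.6 CPM, above the WB1P fibroblast-like (173) and endothelial-like (97.4) levels, and Igfbp6 at 117 CPM, above the WB1P myCAF-like level (56.6). The part of free RNA in these WB1P levels was not tested.

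**Figure D4:**
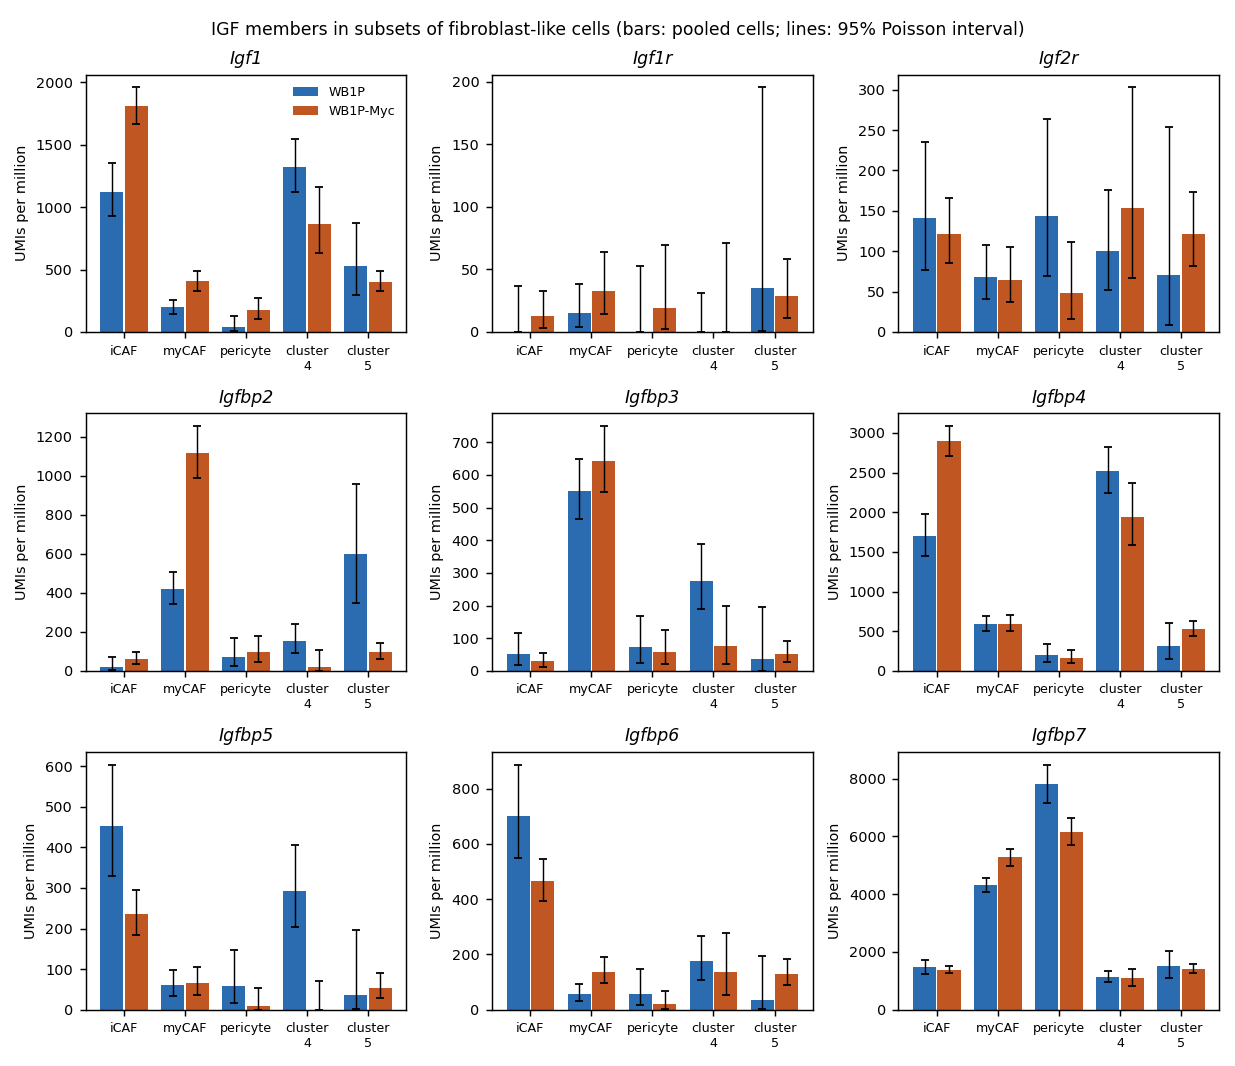
Bars show CPM pooled over the cells of each fibroblast subset (WB1P blue, WB1P-Myc orange), and lines show the 95% Poisson interval. Igf1 and Igfbp4 are lowest in pericyte-like cells (121 and 178 CPM over both models), where Igfbp7 is highest (6816 CPM).

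Co-detection was counted within single fibroblast-like cells. After thinning, 0 of 50 cells with a UMI of the pericyte gene Rgs5 had an Igf1 UMI, against 30.3% of the 442 cells without Rgs5. The 0 allows up to 6% of such cells to hold an Igf1 UMI at 600 UMIs per cell and is no limit on cells that express the gene. Before thinning, pericyte-like cells with an Rgs5 UMI held 1 Igf1 UMI (10.1 CPM). Igf1 was seen in 50.9% of cells with Cxcl12, an iCAF chemokine, and in 24.1% of cells without it, and in 13.7% of cells with smooth muscle actin (Acta2) against 32.9% of cells without it. For the other fibroblast genes counted, Igf1 was seen in 47.2% of cells with Cd34 and 25.7% without, in 28.8% with Postn and 24.1% without, and in 18.2% of the 11 cells with Dpp4 and 27.4% of the 481 without. Cells with Igfbp4 held Igf1 in 42.0% and cells without Igfbp4 in 19.0%. Igfbp2 went the other way with Acta2 (15.1% with, 4.62% without), and Igfbp7 was seen in 96.0% of cells with Rgs5 and 58.1% of cells without. Cells of 1 sample are not replicates, and these shares are given without a test.

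Between models a difference was called only where, besides the limits on UMIs, fold and interval, every fraction of 1 model lay above every fraction of the other. In fibroblast-like cells none of the 8 members with enough UMIs met this, against 1.9% of 4430 genes. Igf1 fractions were 337, 456, 455 and 900 CPM in WB1P (537 ± 249, SD, n = 4 fractions) and 870, 738, 1070 and 761 CPM in WB1P-Myc (860 ± 152). WB1P fraction 4 exceeded all but 1 of the WB1P-Myc fractions, so the models overlapped, and the pooled log2 ratio of WB1P-Myc over WB1P was 0.56 (0.38 to 0.75). Igfbp3 fractions were 0, 302, 311 and 379 CPM in WB1P and 135, 68.5, 525 and 44.0 CPM in WB1P-Myc (log2 ratio -0.72), also with overlap. In the MiSeq run its ratio was -3.47 and called (7 WB1P-Myc and 87 WB1P UMIs). That run gave no pericyte-like subset and no endothelial-like class with cells of both models. In it 40 of the 94 fibroblast-like Igfbp3 UMIs lay in iCAF-like and myCAF-like cells, and the part of other cells was not tested. The HiSeq ratios of the other members with at least 50 UMIs lay between -0.69 for Igfbp5 and 0.38 for Igfbp2. Igfbp5 turned to 1.34 (13 UMIs) and Igfbp2 to -1.71 (42 UMIs) in the MiSeq run. In the HiSeq run Igf1r had 5 UMIs in WB1P and 21 in WB1P-Myc (8.59 and 21.8 CPM), too few for the rule. Within iCAF-like cells Igf1 was at 1124 CPM in WB1P and 1809 CPM in WB1P-Myc (log2 ratio 0.69), and within myCAF-like cells at 196 and 404 CPM (1.04). None of 6 members in iCAF-like cells and none of 5 in myCAF-like cells met the rule, against 6.21% and 3.81% of all genes. Igfbp6 in myCAF-like cells did not overlap between models, with fractions of 70.0, 37.6 and 68.0 CPM in WB1P and 85.9 to 189.9 CPM in WB1P-Myc (log2 ratio 1.28). Its 15 and 34 UMIs were under the limit of 50 in sum, and it was called with no upper gene limit (1.25) but was 0.45 after thinning and -0.29 in the MiSeq run. Single fractions decided several of these outcomes. Within iCAF-like cells Igf1 (1.34) and Igfbp4 (1.26, against 0.77 with all fractions) were called without WB1P fraction 4, and Igfbp4 also with each cell weighted equally. Within myCAF-like cells Igf1 was called without WB1P-Myc fraction 4 (1.26). Without WB1P-Myc fraction 3, Igfbp2 in myCAF-like cells was called (1.89, against 1.41 with all fractions), and the Igfbp3 ratio turned from 0.22 to -1.58 and was called. In the MiSeq run the Igfbp2 ratio in myCAF-like cells was -1.29 (36 UMIs), the other direction.

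In epithelial-like cells 2 of 7 members met the rule, against 23.2% of 9436 genes, so members were called about as often as genes in general. Igfbp7 fractions were 258, 581, 285 and 388 CPM in WB1P (378 ± 147) and 88.6, 108, 79.1 and 117 CPM in WB1P-Myc (98.1 ± 17.3). All WB1P fractions were higher, and the pooled levels of 424 and 97.9 CPM gave a log2 ratio of -2.12 (-2.28 to -1.95). Schwann-like cells, found only in WB1P-Myc, held Igfbp7 at 432 ± 53.7 CPM over the fractions. The difference is thus one of the epithelial-like class and not of all WB1P-Myc cells outside the stroma. Whether Schwann-like cells were tumor cells was not tested. Igfbp2 fractions were 11.2, 28.7, 20.2 and 49.0 CPM in WB1P (27.3 ± 16.2) and 97.4, 114, 111 and 115 CPM in WB1P-Myc (109.5 ± 8.28). All WB1P-Myc fractions were higher, with a log2 ratio of 1.75 (1.38 to 2.14). Barcodes with 200 to under 450 genes, below the limit for cells, held Igfbp7 at 608 CPM in WB1P and 192 CPM in WB1P-Myc, the same direction, and WB1P barcodes with under 200 genes held it at 532 CPM (453 to 619), so the WB1P epithelial-like level was not above these barcodes. Igfbp2 was at 70.9 and 64.1 CPM in the barcodes with 200 to under 450 genes and at 48.6 CPM in WB1P barcodes with under 200 genes, against 32.4 CPM in WB1P epithelial-like cells. The part of free RNA in both differences was not tested. The Igfbp2 call depended on which cells were counted as epithelial. At a finer clustering resolution 359 WB1P-Myc cells had the epithelial name, and the ratio was 0.16 (32.7 and 36.6 CPM). In epithelial-like cells without a collagen UMI it was 0.70 (43.0 and 69.8 CPM). The 12 fibroblast markers summed to 628 CPM in WB1P and 893 CPM in WB1P-Myc cells of this class, and the 12 Schwann markers to 151 and 578 CPM, and their part in the difference was not tested. Most epithelial-like cells of the 2 models came from different clusters, as described above.

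Igfbp5 in epithelial-like cells was at 123, 393, 325 and 260 CPM in the WB1P fractions and at 34.1, 140, 36.1 and 60.9 CPM in the WB1P-Myc fractions. WB1P-Myc fraction 2 lay above WB1P fraction 1, so the models overlapped, and the log2 ratio of -2.25 (-2.45 to -2.06) was not called. It was called without WB1P fraction 1 (-2.29) and without WB1P-Myc fraction 2 (-2.88), and also with a minimum of 200 genes (-2.26) and with each cell weighted equally (-2.15), and was -1.30 at the finer clustering resolution. A group of 9 WB1P-Myc cells that clustered with the WB1P cells carried 89 of the 330 Igfbp5 UMIs of the WB1P-Myc epithelial-like cells, at 3939 CPM. Igfbp4 was at 134, 131, 147 and 141 CPM in WB1P and 87.2, 82.7, 43.0 and 86.8 CPM in WB1P-Myc. These fractions did not overlap, but the pooled log2 ratio of -0.88 missed the 2-fold limit, which it passed at the finer resolution (-2.24), without the upper limit on genes (-1.16) and in cells without collagen UMIs (-1.75). In the MiSeq run, where 2 WB1P-Myc cells had the epithelial name with 5 Igfbp4 UMIs, the Igfbp4 ratio turned to 1.78, and Igfbp7 had 0 UMIs in these cells, so no ratio of it is given. The receptors Igf1r (-0.56) and Igf2r (-0.20) and Igfbp3 (0.22) were not called. Barcodes with 200 to under 450 genes held Igfbp4 at 154.6 CPM in WB1P and 93.6 CPM in WB1P-Myc. The same barcodes held Igfbp5 at 274.8 and 83.8 CPM, so both genes had the direction of the epithelial-like HiSeq ratios. WB1P barcodes with under 200 genes held Igfbp4 at 175 CPM. The part of free RNA in the Igfbp4 and Igfbp5 differences was not tested.

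**Figure D5:**
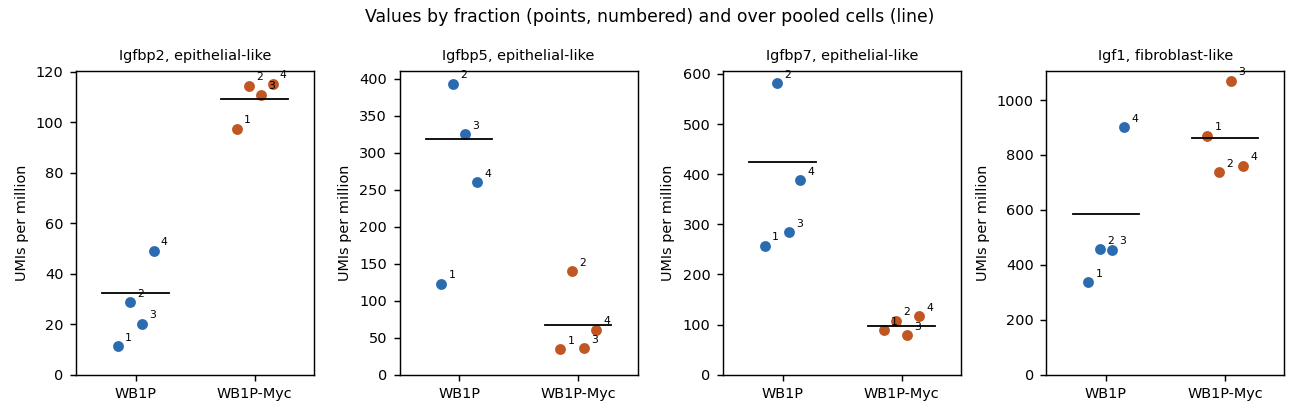
Points show CPM in each droplet fraction, numbered 1 to 4, and lines the pooled cells of each model. Igfbp7 and Igfbp2 in epithelial-like cells separate the models in opposite directions, while Igfbp5 in epithelial-like cells and Igf1 in fibroblast-like cells overlap between WB1P and WB1P-Myc.

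In endothelial-like cells none of 3 members met the rule, against 1.33% of 899 genes. Igfbp3 was at 5063 CPM in WB1P and 2104 CPM in WB1P-Myc (log2 ratio -1.27, -1.49 to -1.04), with fractions of 0, 6300, 3507 and 5283 CPM against 3451, 2496, 1866 and 337 CPM. The 0 came from a fraction with 1 endothelial-like cell, and without it the difference was called (-1.28). In macrophage-like cells neither of the 2 members with enough UMIs met the rule, against 4.14% of 5163 genes. Igfbp4 gave a log2 ratio of -0.41 and Igfbp7 of -0.90, and without the T or NK-like cells, an alternative chosen after seeing the data, -0.40 and -0.95. Igf2r, with 5 UMIs in WB1P and 41 in WB1P-Myc (7.54 and 31.8 CPM), had too few UMIs for the rule, and was called under lower limits on UMIs (2.07). The clusters that make up this class differed between models. An unnamed cluster led by Il1r2 gave 160 of the 378 WB1P cells and 72 of the 700 WB1P-Myc cells, and one led by Cd36 gave 22 and 152, and the latter held 20 of the 41 WB1P-Myc Igf2r UMIs (79.5 CPM).

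Other genes of the pathway were taken from a list of 36, of which 32 were in the tables. Of 28 with enough UMIs, 6 were higher in fibroblast-like cells and 4 were lower, against 12.5% and 22.4% of all genes. The higher genes were Nov (154 against 1.82 CPM, log2 ratio 6.41), a matricellular protein with an IGF-binding domain, and the metalloproteases Adam12 (5.33) and Pappa (4.34), both known to cleave IGF-binding proteins. They also included the growth hormone receptor Ghr (3.00), the serine protease Htra1 (2.46) and the adaptor Shc1 (1.61). The lower genes were Pik3cb, a PI3 kinase catalytic subunit (-3.50), Stc2, an inhibitor of PAPP-A (-1.64), the adaptor Grb14 (-1.48) and the lysosomal protease Ctsd (-1.04).

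Between the fibroblast subsets, 4 of 13 pathway genes were higher in iCAF-like cells (8.94% of all genes) and none were lower (10.5%): Nov (246 against 46.8 CPM, log2 ratio 2.39), the adaptors Grb10 (1.46) and Irs2 (1.03), and the kinase Akt2 (1.00). Pappa had 0 UMIs in iCAF-like cells, which allows up to 7.24 CPM, and 28 UMIs (54.7 CPM) in myCAF-like cells. In pericyte-like cells 3 of 14 pathway genes were lower than in iCAF-like and myCAF-like cells, against 10.3% of all genes, namely Nov (log2 ratio -1.98), the PI3 kinase subunit gene Pik3ca (-2.19) and Adam12 (-1.05). In fibroblast-like cells none of 14 pathway genes differed between models by the rule (1.9% of all genes). Within iCAF-like cells 2 of 6 did, against 6.21% of all genes, with Nov higher in WB1P-Myc (293 against 100.4 CPM, log2 ratio 1.54) and the protease gene Ctsd lower (229 against 472 CPM, -1.04), and within myCAF-like cells none of 5 did. In epithelial-like cells 8 of 22 did, against 23.2% of all genes. Most of these cells came from a different cluster in each model. The pathway calls were not recomputed at the finer clustering resolution, where fewer WB1P-Myc cells had the epithelial name. Irs2, a docking protein downstream of IGF1R, was lower in WB1P-Myc cells, with fractions of 302, 98.3, 103 and 123 CPM in WB1P and 9.45, 14.2, 9.46 and 12.5 CPM in WB1P-Myc (log2 ratio -3.36). The insulin receptor Insr (-1.67), Ghr (-2.18), Shc1 (-1.65) and Htra1 (-1.35) were lower as well, while Grb10 (5.13) and the ribosomal S6 kinase Rps6kb1 (1.58) were higher. Igf2, the second ligand, was at 263, 249.7, 371 and 154 CPM in the WB1P-Myc fractions and had 0 of 2039699 UMIs in WB1P epithelial-like cells, so that it was at least 176-fold higher in WB1P-Myc. In macrophage-like cells 1 of 10 pathway genes, Ctsd, was higher in WB1P-Myc (3313 against 1153 CPM), where 4.14% of all genes were called.

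Genes with the most similar pattern were sought over the 9 class-by-model groups among 12232 genes, by the Pearson correlation of log levels. This is a description, since the groups share libraries and depth. For Igf1 they were Adamts15, Rpl39l and Eln (each r = 0.98), for Igfbp6 Spon1, Clmp and Hsd11b1 (0.99 for the first) and for Igfbp4 Fosb, Ebf2 and Cyth3 (0.96 for the first). Igfbp3 was most like Tmem204 (0.99) and Igfbp7 most like Prkcdbp (0.99). Among the members, Igf1 was most like Igfbp6 (0.92), and Igfbp3 and Igfbp7 had r = 0.87.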

How the data were processed

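The deposited files hold raw UMI counts per gene symbol and cell barcode, 1000 barcodes per table. They were made by the authors with dropseq-tools, and the submitters' processing notes name build mm10 and Scanpy. The 8 HiSeq tables were used, with the MiSeq run as an alternative. Barcodes with 450 to 4000 genes and under 20% mitochondrial UMIs were kept, with genes seen in at least 3 cells. Each cell's counts were brought to a total of 10000 and logged. Clusters were formed in scanpy 1.11.5 (30 components, 20 neighbors, Leiden resolution 0.3), and again within fibroblast-like cells (40 components, resolution 0.6), with the 9 members and the pathway genes left out of the components. Marker lists were ranked for each cluster by their genes among its 10 top genes and then by their leading markers. A cluster was named for the first list only if that list had at least 3 leading markers. Shallow clusters without a top gene from that list also stayed unnamed. No doublet caller was run. Levels are pooled UMIs per 1000000 (CPM) with exact Poisson intervals, and ratios have conditional binomial intervals. Shares of cells were also computed after thinning to 600 UMIs. A count of 0 was given an upper limit of 3 counts. Scaling by TMM (edgeR 4.0.16) and by median of ratios (DESeq2 1.42.0) and leaving out single fractions were among the alternatives. The script for ratios and intervals was checked on simulated counts, which is no test of a difference between models. All members are named and, in the comparisons given, all called pathway genes. The members, gene lists, cluster settings and call rule were chosen with earlier results of these data known. PCR and capture were shared within a fraction, and the legends of the study give 2 mice per model for this experiment, while the titles number 4 samples per model, taken here as the 4 fractions of 1 sample that the extraction notes describe. The sources used here do not say if a sample pools these mice. Reads of Igf1 and Igf1os, Igf2r and Airn, and Igfbp7 and Polr2b or Gm34648, which overlap on opposite strands, were taken as the tables assign them. Promoters are from RefSeq.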

Additional observations from a re-analysis of the deposited data

Results flagged for a closer look

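In 78 groups of 4 fractions, 8 held a fraction that stood apart from the others by Dixon's ratio. The limit is set for about 1 in 20 groups by chance, but that rate does not hold for sparse counts. A fraction with 1 UMI against 0 in the others always passes it, so the 8 are not an excess over chance. 2 of the 8 were in WB1P fraction 1, which held 65 cells. Igfbp7 in fibroblast-like cells was at 1011 CPM there (3 UMIs in 2 cells), against 3366 to 3537 CPM in the other WB1P fractions, and Igfbp3 in macrophage-like cells was at 683 CPM (1 UMI), against 0 to 12.6 CPM. Igfbp4 in epithelial-like cells was low in WB1P-Myc fraction 3 at 43.0 CPM (50 UMIs), against 82.7 to 87.2 CPM in the others. Igfbp5 in endothelial-like cells was high in WB1P fraction 3 at 262 CPM (5 UMIs), against 0 to 42.3 CPM. The remaining 4 were in endothelial-like cells and rest on 1 UMI each: Igf1 in WB1P fraction 3 (52.4 CPM), Igf1r in WB1P fraction 4 (55.0 CPM), Igf2r in WB1P fraction 2 (42.3 CPM) and Igfbp2 in WB1P-Myc fraction 2 (21.3 CPM).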

How the results depend on the processing

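The counts of members past the call rule were within 1.5 times the reported count in 139 of 147 recomputations. The log2 ratios kept their call, or the lack of one, in 1718 of 1763. Some of these recomputations could not differ from the reported result, so neither share measures robustness. Reclustering the fibroblast-like cells or leaving out the T or NK-like cells, for example, left the epithelial-like cells as they were. Ratios with UMIs far under the limit of the call rule also had little room to gain a call. Of 480 recomputations of called ratios 1 changed sign, and of 1283 of ratios not called 125 did, with 21 sign changes in the MiSeq run. Where a count was 0, the sign rested on the upper limit given to it. Igfbp2 between models in epithelial-like cells was 3.90 in the MiSeq run, from 0 WB1P-Myc and 9 WB1P UMIs, and counts as unchanged in sign. The MiSeq run gave 1 member between models in fibroblast-like cells (Igfbp3), 1 in epithelial-like cells (Igfbp4) and 3 between fibroblast subsets. It had no endothelial-like class with cells of both models and no pericyte-like subset, so its fibroblast-like class may hold other cells than in the HiSeq run. In macrophage-like cells 1 member, Igf2r, was called with no upper gene limit, with each cell weighted equally, and with a minimum of 10 UMIs or none. Without WB1P fraction 1 the endothelial-like count was 1, so that leaving out single fractions gave 0 to 1 there. It gave 2 to 3 in epithelial-like cells and 7 to 8 between subsets. The called ratio that turned was Igfbp2 in pericyte-like cells (0.14 at under 10% mitochondrial UMIs). 2 of the ratios not called turned and were then called. Igfbp4 between models in epithelial-like cells was 1.78 in the MiSeq run, where 2 WB1P-Myc cells held 5 Igfbp4 UMIs. Igfbp3 between models in myCAF-like cells was 0.22 with all fractions, -1.58 without WB1P-Myc fraction 3 and up to 0.59 without fraction 4. The cause was not tested. Scaling by TMM or median of ratios shifted iCAF-like over myCAF-like ratios by 0.14 and 0.13, and macrophage-like model ratios by -0.12 and -0.13. Leaving out the deepest fibroblast-like cells or the T or NK-like cells, alternatives chosen after seeing the data, gave the same counts of members. No paired analysis was possible because the fraction numbers of the 2 models belong to separate samples and no test between models was made. Depth limits Igf1r most, with 320 UMIs in all cells.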

Other observations

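Within the macrophage-like class, Igf1 was uneven. A cluster of 80 cells led by Cbr2, Ccl8, Gas6, F13a1 and Mrc1, genes known from tissue-resident macrophages, held Igf1 at 120.0 CPM (15 UMIs, 67.1 to 198) and Igfbp4 at 328 CPM, while the other macrophage-class clusters held Igf1 at 0 to 30.8 CPM. The cluster of 80 cells was left unnamed. The monocyte list had 1 leading marker in it, F13a1, and the macrophage list had 1 as well. WB1P barcodes with under 200 genes held Igf1 at 68.1 CPM (42.1 to 104), overlapping its interval, and the part of free RNA was not tested. In the 55 of these cells without a collagen UMI, Igf1 was at 169 CPM and Igfbp4 at 325 CPM. An Igf1 UMI was seen in 13.8% of the 80 cells, and in 8.75% after thinning. Igf2r was at 72.5 CPM in a macrophage-class cluster led by Cd36, Pf4, Ctsl and Ccl7.

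Igfbp2 and Igfbp5 are neighbors on chromosome 1 (mm10, GENCODE), on opposite strands with 5457 bases between their ends, at chr1:72824503-72852474 and chr1:72857932-72874884. Between the fibroblast subsets they differed in opposite directions, with log2 ratios of iCAF-like over myCAF-like cells of -3.90 and 2.20, and between models in epithelial-like cells their ratios were 1.75 and -2.25, the second of which was not called.

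Barcodes outside the gene limits were also read. In 1605 WB1P barcodes with under 200 genes, Igf1 was at 68.1 CPM, Igfbp4 at 175 CPM, Igfbp7 at 532 CPM, Igfbp5 at 249.6 CPM (197 to 312) and Igfbp6 at 117 CPM (81.7 to 162), with Igf2r at 68.1, Igfbp2 at 48.6 and Igfbp3 at 38.9 CPM. In 40 WB1P barcodes with over 4000 genes, Igfbp5 was at 359.6 CPM and Igfbp7 at 536 CPM. Among genes named for other roles in the IGF system, Insr (194 CPM) and the endothelial proteoglycan Esm1 (177 CPM) were read at high levels in endothelial-like cells.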
